A study of Homo sapiens with 18 samples.

Results

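The lysosome and autophagy genes considered here were 54 genes listed by symbol: 15 of the proton pump, 10 lysosomal enzymes and activators, 6 lysosomal membrane and lipid export proteins, the 3 MiT/TFE transcription factors with FLCN, and 19 genes of the autophagy machinery. Their rows were taken by symbol alone from a raw count table of 59251 gene symbols. Of the 54 members, 53 passed the low-count filter, as did 17966 of all symbols. CTSZ, which encodes the protease cathepsin Z, was the exception, with 0 to 10 counts per library and 91 in all.

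Lysosomes are acidic compartments in which hydrolases break down material brought by endocytosis or autophagy. The vacuolar proton pump (V-ATPase) acidifies them, using a membrane sector, V0, that carries the protons and a cytosolic sector, V1, that hydrolyses ATP. In autophagy, a membrane grows around cytoplasm under the ULK1 and BECN1 complexes and is decorated with lipidated ATG8 proteins such as LC3 and GABARAP, and the finished vesicle fuses with the lysosome. The kinase mTORC1 sits on the lysosomal surface, restrains ULK1, and keeps the MiT/TFE factors TFEB, TFE3 and MITF in the cytoplasm through the Rag GTPases and FLCN. In the nucleus, these factors bind the CLEAR element found near many lysosomal genes.

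All 18 libraries came from HEK-293T, a transformed human embryonic kidney cell line, in 6 groups of 3, each with 70000 cells treated. Untransfected cells received DMSO (labelled 0.5 uM), 0.1 uM rapamycin, which inhibits mTORC1, or 0.5 uM grazoprevir, a hepatitis C protease inhibitor. Transfected cells carried Csy4, a bacterial CRISPR endoribonuclease that cuts RNA at a specific hairpin, either full-length with 0.5 uM DMSO, or in split form with 0.5 uM DMSO (untriggered) or with 0.5 uM grazoprevir, which joins the fragments (triggered), each added 6 hours after transfection. The series title presents the split enzyme as a trigger-inducible tool for RNA control, and its design contrasts the effect of the split and full-length forms on the transcriptome. No group was transfected without Csy4, so transfection, construct and enzyme differ together from the untransfected cells. The promoter driving Csy4 was not stated. The labels did not say that replicates came from separate cultures, so the tests see only the variation among these libraries, which may be technical. Rapamycin, grazoprevir and the 3 transfected groups were each compared with the same 3 DMSO libraries, so these comparisons are not independent of each other.

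Library totals ran from 12362101 to 19095828 counts, of which the 54 genes took 0.375% to 0.407%. Of 8 HEK-293T markers, 7 reached 1 CPM (the count scaled to a fixed library size) in every group, and NEFM had 2 counts in all. Their sum was 405 to 411 CPM in DMSO, 401 to 437 CPM with grazoprevir or rapamycin and 454 to 485 CPM in the 3 transfected groups. VIM alone was at 337 to 416 CPM over the 18 libraries, so this sum mostly follows 1 gene. Macrophage and blood markers (7 genes, HBB at 0) summed to 0.524 to 0.885 CPM in DMSO, 0.787 to 2.00 CPM with rapamycin or grazoprevir, 2.93 to 4.54 CPM with full-length and 1.38 to 2.15 CPM with split Csy4. Fibroblast markers (6 genes) summed to 57.9 to 60.3 CPM in DMSO, 50.9 to 56.01 CPM with grazoprevir, 37.9 to 40.03 CPM with rapamycin, 39.1 to 48.4 CPM with full-length and 46.4 to 54.2 CPM with split Csy4, while epithelial carcinoma markers (6 genes, CEACAM6 at 0) stayed at 1.71 to 4.49 CPM in all 18 libraries. The part of these markers in the results below was not tested. Grazoprevir replicate 1 stood apart from its group, with a chi-square per degree of freedom of 4.64 and 3.57 against replicates 2 and 3, where the other pairs within groups gave 1.85 to 2.80. Genes were called when the Benjamini-Hochberg adjusted p of edgeR's quasi-likelihood test, over all genes tested, was below 0.05.

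In DMSO cells, levels differed widely within and between the roles. Per kilobase of transcript, the proton pump genes ran from 19.6 CPM (ATP6V1H) to 131 CPM (ATP6V1F), with a median of 34.1. The 9 tested enzymes ran from 11.6 CPM per kilobase (NEU1) to 141 (GLA). Membrane and export genes spanned 4.64 CPM per kilobase for MCOLN1, a lysosomal calcium channel, to 111 for CD63, a tetraspanin. The factors were low, from 2.01 CPM per kilobase for TFEB to 10.5 for TFE3. Autophagy genes spanned 1.14 (WIPI1) to 65.7 (GABARAPL2) CPM per kilobase.

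Promoters are shown because the MiT/TFE factors bind there, and because the members differ in whether they hold the element. RefSeq (GRCh38.p14) promoters, from 250 bases before to 50 after the annotated start, matched 45 of the 54 members. The CLEAR core TCACGTGA, which holds the E-box core CACGTG and reads the same on both strands, occurred in 7 of these 45 (15.6%), against 283 of all 27305 promoters (1.04%) and 1.75% of the 12604 promoters of tested genes. The E-box core, with or without those flanks, occurred in 12 of 45 (26.7%), against 7.43% of all promoters and 9.70% of those of tested genes. The 7 genes were GAA, CTSA, ATP6V0D1, LAMP1, MCOLN1, ATP6V1G1 and ATG3. Below are the 250 bases before the start for the 4 of them that rose with rapamycin, and for MCOLN1, which holds the core at 2 places and was not called in any comparison with DMSO. Sequences run 5′ to 3′ on the gene's strand, and capitals mark the E-box core or, where the flanks match, the CLEAR core.
GAA, chr17:80101331-80101580, plus strand: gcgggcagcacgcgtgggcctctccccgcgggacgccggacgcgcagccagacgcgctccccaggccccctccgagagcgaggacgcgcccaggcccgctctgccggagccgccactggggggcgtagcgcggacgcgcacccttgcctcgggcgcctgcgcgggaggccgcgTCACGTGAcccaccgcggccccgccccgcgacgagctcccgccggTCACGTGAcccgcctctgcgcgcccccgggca
CTSA, chr20:45891085-45891334, plus strand: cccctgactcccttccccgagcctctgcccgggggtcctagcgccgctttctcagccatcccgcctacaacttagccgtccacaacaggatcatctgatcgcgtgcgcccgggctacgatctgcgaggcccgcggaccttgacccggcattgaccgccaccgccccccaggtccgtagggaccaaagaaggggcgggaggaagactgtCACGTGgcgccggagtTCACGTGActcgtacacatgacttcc
ATP6V0D1, chr16:67481158-67481407, minus strand: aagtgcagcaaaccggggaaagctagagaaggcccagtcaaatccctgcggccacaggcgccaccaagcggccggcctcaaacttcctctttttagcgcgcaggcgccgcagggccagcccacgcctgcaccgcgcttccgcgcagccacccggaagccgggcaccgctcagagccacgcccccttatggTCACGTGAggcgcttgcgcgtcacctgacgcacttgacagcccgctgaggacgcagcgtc
LAMP1, chr13:113296989-113297238, plus strand: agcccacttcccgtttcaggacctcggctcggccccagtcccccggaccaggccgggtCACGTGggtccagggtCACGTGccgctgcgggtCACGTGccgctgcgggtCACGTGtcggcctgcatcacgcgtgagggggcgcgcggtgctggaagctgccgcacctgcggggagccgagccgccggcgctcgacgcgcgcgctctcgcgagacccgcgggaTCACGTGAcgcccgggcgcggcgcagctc
MCOLN1, chr19:7522374-7522623, plus strand: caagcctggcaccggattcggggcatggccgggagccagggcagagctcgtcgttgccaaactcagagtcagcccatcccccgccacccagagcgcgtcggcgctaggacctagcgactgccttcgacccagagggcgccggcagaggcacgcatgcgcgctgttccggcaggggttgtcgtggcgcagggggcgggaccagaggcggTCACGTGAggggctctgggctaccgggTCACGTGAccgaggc
LAMP1 had 5 E-box cores in this stretch, 1 of them a CLEAR core, and another CLEAR core across its start. A match describes letters in a window and is not a measured binding site.

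Members were called with rapamycin and with every form of Csy4, but not with grazoprevir alone. In bulk RNA, fewer cells expressing a gene and less RNA per cell cannot be told apart. Rapamycin raised 15 and lowered 7 of the 53 tested members, where 33.2% of all tested genes were called (17.2% higher and 16% lower). Full-length Csy4 raised 22 and lowered 16, where 46.9% of all genes were called (22.9% higher and 24% lower). The 7 members that also passed a 1.5-fold change with full-length Csy4 compare with 14.4% of all genes. Untriggered split Csy4 raised 22 and lowered 7 (all genes 28.9%, with 14.8% higher and 14.1% lower), and triggered split Csy4 raised 24 and lowered 8 (31.6%, with 16% higher and 15.6% lower). No member passed 1.5-fold in either split group, where 5.18% and 6.22% of all genes did. The 3 libraries of a group did not overlap with the 3 of DMSO for 28, 37, 34 and 33 members in these comparisons, against 43.6%, 54%, 40.6% and 43.3% of all genes. Against grazoprevir alone, which matches the drug but not the transfection, triggered split Csy4 raised 24 and lowered 7 (32.1%, with 16.2% higher and 16% lower). These shares of all genes also apply to the counts by role below. The median log2 fold change over the members was 0.02 with rapamycin (0.02 over all genes tested), 0.09 with full-length Csy4 (-0.01), 0.11 with untriggered split Csy4 (-0.003) and 0.13 with the triggered form (-0.005). Under scaling by library totals alone the full-length comparison gave 28 higher and 13 lower members. That scaling also put 61.1% of all full-length calls on the higher side, where TMM (trimmed mean of M values) scaling gave 48.8%. In counts simulated for the full-length comparison, the test recovered 38% of 50 genes changed 1.2-fold and 76% of 50 changed 1.5-fold. The changed genes were drawn from expressed genes in general, and far fewer changed than were called in the data. These rates are thus not those of the members, and small changes could still be missed.

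**Figure D1:**
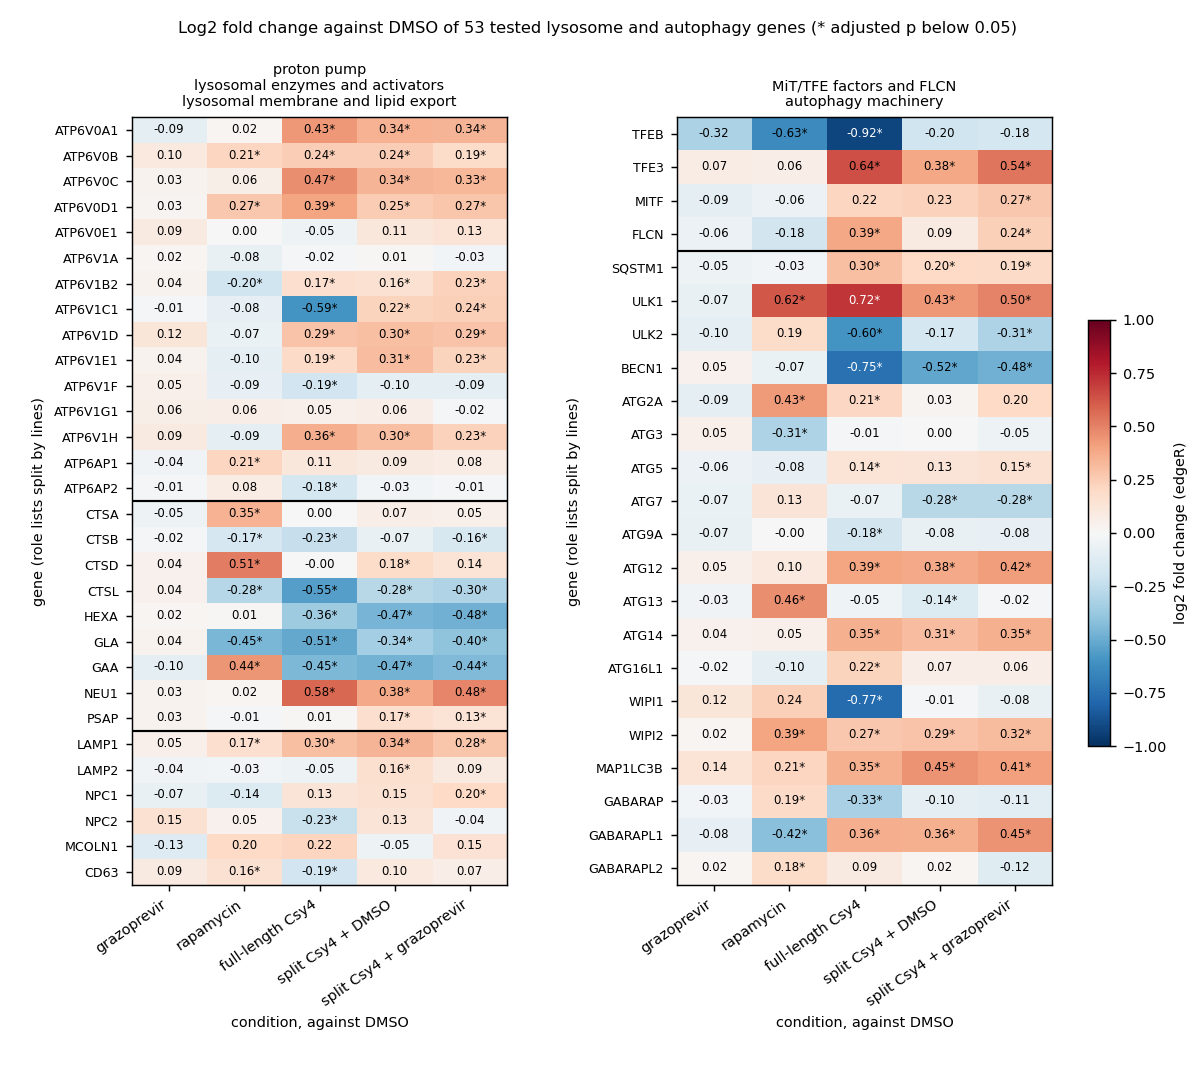
Log2 fold change against DMSO (edgeR) of the 53 tested members, in rows by role list, for 5 conditions in columns. Asterisks mark adjusted p below 0.05, and colour runs from blue (lower) to red (higher). The grazoprevir column holds no asterisk, and the split Csy4 columns hold mostly red cells for the pump and blue cells for several enzymes.

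Most of the 5 membrane-sector genes of the proton pump among the members rose in the transfected groups. Of 5 V0 genes, 4 were called higher and none lower with full-length, untriggered split and triggered split Csy4 alike, and their summed level was 126% ± 2.83, 121% ± 4.24 and 121% ± 1.45 of the DMSO mean (SD, n = 3 libraries each). ATP6V0A1, the large subunit that shapes the proton path, was at 104, 92.5 and 100.1 CPM in the DMSO libraries. It was at 139, 132 and 131 CPM with full-length Csy4, 126, 123 and 128 CPM with untriggered split and 124, 123 and 129 CPM with triggered split Csy4. Every transfected library lay above every DMSO, grazoprevir and rapamycin library for this gene, and the log2 fold changes against DMSO were 0.43 ± 0.05, 0.34 ± 0.05 and 0.34 ± 0.05 (SE), with adjusted p = 5.68e-13, 7.95e-09 and 7.79e-09. With rapamycin ATP6V0A1 was at 104, 97.1 and 101 CPM. ATP6V0C, which forms the proton-carrying ring, went from 70.2, 77.7 and 72.9 CPM in DMSO to 101, 98.5 and 105 CPM with full-length Csy4 (log2 fold change 0.47 ± 0.05, adjusted p = 2.37e-12), with no overlap. ATP6V0E1 was not called in any comparison with DMSO.

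ATP6V0D1, the subunit that joins the ring to the central stalk and the V0 gene with a CLEAR core in its promoter, rose with rapamycin as well. Its level was 42.3, 42.3 and 47.6 CPM in DMSO and 54.5, 50.3 and 53.9 CPM with rapamycin, without overlap (log2 fold change 0.27 ± 0.06, adjusted p = 0.000559). With Csy4 it was 53.5, 57.7 and 61.5 CPM for the full-length, 51.1, 57.5 and 48.9 CPM for the untriggered and 54.5, 53.9 and 51.3 CPM for the triggered form, with log2 fold changes of 0.39, 0.25 and 0.27 against DMSO. ATP6V0B rose in the same 4 comparisons by 0.19 to 0.24 on the log2 scale, and these calls were lost without DMSO replicate 2, its lowest library at 39.2 CPM (adjusted p = 0.156 for rapamycin and 0.0560, 0.0821 and 0.284 for the 3 transfected groups in the order above). The triggered call was also lost without triggered replicate 1 or 2.

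The cytosolic sector divided. Of 8 V1 genes, 5 were called higher and none lower in each split group, while full-length Csy4 raised 4 and lowered 2. ATP6V1C1, on chromosome 8 (chr8:103021083-103073051, GRCh38.p14), encodes the C subunit that links V1 to V0. It was at 138, 138 and 144 CPM in DMSO, 164, 163 and 162 CPM with untriggered split and 174, 158 and 162 CPM with triggered split Csy4, but at 90.6, 94.6 and 92.4 CPM with full-length Csy4. All 3 full-length libraries lay below, and all 6 split libraries above, every DMSO library. Against DMSO the log2 fold change was -0.59 ± 0.04 with full-length (adjusted p = 1.2e-19), 0.22 ± 0.04 with untriggered (adjusted p = 2.45e-05) and 0.24 ± 0.04 with triggered split Csy4 (adjusted p = 7.17e-06).

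ATP6V1D, ATP6V1E1, ATP6V1H and ATP6V1B2, which carry the central stalk, peripheral stalk, regulatory and nucleotide-binding roles, rose in each transfected group, by 0.16 to 0.36 on the log2 scale. ATP6V1B2 fell with rapamycin (-0.20 ± 0.05, adjusted p = 0.0013), from 81.8, 79.9 and 81.3 CPM in DMSO to 73.2, 68.9 and 69.3 CPM. Its full-length call was lost without full-length replicate 3 (adjusted p = 0.112), and its untriggered split call without DMSO replicate 2, or without untriggered split replicate 1 or 2 (adjusted p up to 0.0720). ATP6V1F fell with full-length Csy4 by 0.19, a call lost with offsets for transcript length and GC content (adjusted p = 0.656). ATP6V1A, the catalytic subunit, and ATP6V1G1 were not called anywhere against DMSO. Summed over the 8 genes, V1 stood at 98.4% ± 2.23 of DMSO with full-length Csy4 and at 110% ± 1.06 and 108% ± 1.10 with the untriggered and triggered forms. ATP6AP1, an accessory assembly factor, rose with rapamycin (0.21, adjusted p = 0.000859), and ATP6AP2 fell with full-length Csy4 (-0.18, adjusted p = 0.00512). The ATP6AP2 call was lost without DMSO replicate 2 or with library totals alone (adjusted p up to 0.0785).

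More lysosomal hydrolases fell than rose in the transfected cells. Of 9 tested enzymes and activators, full-length Csy4 lowered 5 and raised 1, untriggered split Csy4 lowered 4 and raised 3, and triggered split Csy4 lowered 5 and raised 2. Their summed level was 86.8% ± 0.180 of the DMSO mean with full-length, 95.3% ± 1.97 with untriggered and 93.1% ± 2.85 with triggered split Csy4. GLA, alpha-galactosidase A of glycosphingolipid breakdown, was at 184, 188 and 186 CPM in DMSO, 127, 126 and 138 CPM with full-length, 143, 149 and 149 CPM with untriggered and 143, 137 and 142 CPM with triggered split Csy4. Transfected and DMSO libraries did not overlap (log2 fold changes -0.51, -0.34 and -0.40, adjusted p = 2.35e-18, 1.94e-10 and 4.77e-13).

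CTSL, the cysteine protease cathepsin L, fell from 129.8, 136 and 130.2 CPM in DMSO to 83.8, 94.95 and 91.7 CPM with full-length Csy4 (-0.55 ± 0.05, adjusted p = 1.05e-15). In the split groups CTSL fell by 0.28 and 0.30 on the log2 scale. HEXA, the alpha subunit of the hexosaminidase that degrades GM2 ganglioside, was at 70.2, 62.9 and 65.9 CPM in DMSO, 54.5, 52.9 and 48.2 CPM with full-length, 46.7, 48.3 and 48.9 CPM with untriggered and 44.5, 46.2 and 51.9 CPM with triggered split Csy4. All 9 transfected libraries lay below all DMSO libraries, with log2 fold changes of -0.36, -0.47 and -0.48 (adjusted p = 3.61e-07, 1.42e-09 and 6.28e-10). NEU1, the lysosomal sialidase, went the other way, from 23.4, 24.7 and 23.01 CPM in DMSO to 35.8, 34.03 and 36.4 CPM with full-length Csy4, 28.6, 32.1 and 31.8 CPM with untriggered and 34.8, 32.4 and 32.4 CPM with triggered split Csy4. Its log2 fold changes were 0.58 ± 0.08, 0.38 ± 0.08 and 0.48 ± 0.08, with adjusted p = 1.47e-09, 0.000101 and 6.8e-07, again without overlap. PSAP, the precursor of the saposins, rose in both split groups by 0.17 and 0.13. CTSB, cathepsin B, fell with full-length (-0.23) and triggered split Csy4 (-0.16), the latter lost without DMSO replicate 1 or triggered replicate 2 (adjusted p up to 0.110). CTSD rose with untriggered split Csy4 by 0.18, a call lost without DMSO replicate 2 (adjusted p = 0.0604).

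Rapamycin raised 3 of the 9 enzymes (CTSD, GAA and CTSA) and lowered 3 (GLA, CTSL and CTSB). Their sum was 97.004% ± 1.2 of the DMSO mean (SD, n = 3), from 96.3% to 98.4%, below the 99.1% to 100.7% of the DMSO libraries. CTSD, the aspartic protease cathepsin D, was at 63.8, 62.7 and 70.1 CPM in DMSO and 92.98, 93.1 and 93.8 CPM with rapamycin (log2 fold change 0.51 ± 0.05, adjusted p = 8.95e-13). CTSA, which protects NEU1 in a complex, rose from 38.6, 41.3 and 36.5 CPM to 47.3, 46.96 and 54.05 CPM (0.35 ± 0.07, adjusted p = 3.02e-05). GLA fell to 141, 132 and 135 CPM (-0.45 ± 0.04, adjusted p = 1.71e-15), and CTSL by 0.28 on the log2 scale. CTSB fell by 0.17, a call lost without DMSO replicate 1 or rapamycin library C (adjusted p up to 0.0829).

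GAA, acid alpha-glucosidase of glycogen breakdown, moved in opposite directions with rapamycin and in the transfected groups. It was at 48.1, 44.8 and 53.7 CPM in DMSO, 61.4, 68.1 and 69.2 CPM with rapamycin, 36.96, 37.3 and 32.9 CPM with full-length Csy4, 32.8, 38.3 and 34.4 CPM with untriggered and 37.7, 34.4 and 35.8 CPM with triggered split Csy4. Rapamycin libraries lay above and transfected libraries below all DMSO libraries. Against DMSO the log2 fold changes were 0.44 ± 0.07 for rapamycin (adjusted p = 4.51e-08) and -0.45, -0.47 and -0.44 for the transfected groups (adjusted p = 7.12e-08, 8.02e-08 and 5.06e-07). Rapamycin and the transfected groups were not compared directly.

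At the lysosomal membrane, LAMP1, the abundant glycoprotein that lines it, rose in the 3 transfected groups. LAMP1 was at 78.2, 82.5 and 88.7 CPM in DMSO and at 98.7, 108 and 101 CPM with full-length, 105, 107 and 103 CPM with untriggered and 103, 98.8 and 99.9 CPM with triggered split Csy4. Those groups did not overlap with DMSO (log2 fold changes 0.30, 0.34 and 0.28, adjusted p = 2.6e-07, 4.56e-08 and 5.13e-06). With rapamycin LAMP1 was at 90.6, 97.4 and 91.6 CPM (0.17, adjusted p = 0.00544), a call lost without DMSO replicate 1 or rapamycin library B (adjusted p = 0.0866 and 0.0645). CD63 rose with rapamycin (0.16) and fell with full-length Csy4 (-0.19), the first call being lost without DMSO replicate 1 (adjusted p = 0.0702) and the second under length and GC offsets (adjusted p = 0.105). NPC2, which hands cholesterol to NPC1 for export, was lower with full-length Csy4 by 0.23 on the log2 scale, a call that failed in 6 of the alternative settings (adjusted p up to 0.341). LAMP2 rose with untriggered split Csy4 by 0.16 and NPC1 with triggered split Csy4 by 0.20, the NPC1 call being lost without DMSO replicate 1 or triggered replicate 2 (adjusted p up to 0.0659). MCOLN1 was not called.

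**Figure D2:**
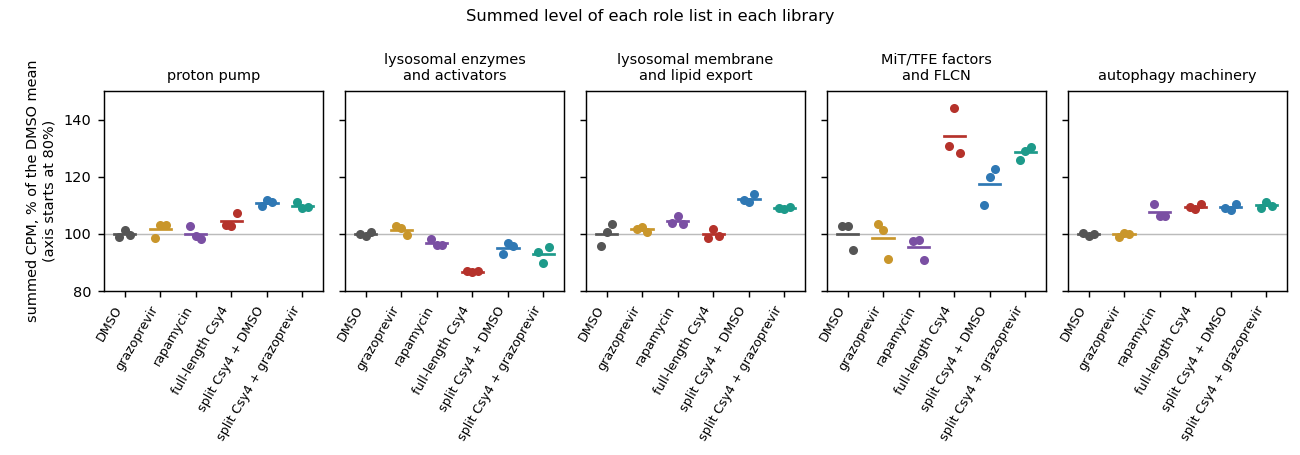
Summed CPM of each role list per library, as a percent of the DMSO mean of that list, in 5 panels for the 6 groups. Points are libraries, horizontal lines are means of 3, and the axis does not start at 0. The enzyme sum is lowest with full-length Csy4, the autophagy sum is above DMSO in all libraries but those of grazoprevir, and the summed MiT/TFE factors and FLCN are highest with full-length Csy4.

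Among the MiT/TFE factors, full-length Csy4 raised TFE3 and lowered TFEB. TFE3 was at 35.4, 38.4 and 33.7 CPM in DMSO, 54.3, 60.2 and 53.2 CPM with full-length, 44.8, 46.6 and 48.7 CPM with untriggered and 50.1, 51.9 and 53.97 CPM with triggered split Csy4. No transfected library overlapped with DMSO, and the log2 fold changes were 0.64 ± 0.07, 0.38 ± 0.07 and 0.54 ± 0.07 (adjusted p = 2.78e-13, 5.8e-06 and 8.05e-10). With rapamycin TFE3 was at 37.1, 39.9 and 35.3 CPM (0.06, adjusted p = 0.532). TFEB, a low-level gene, was at 4.18, 5.26 and 4.74 CPM in DMSO and 1.8, 3.09 and 2.52 CPM with full-length Csy4 (-0.92 ± 0.22, adjusted p = 0.000286). Its split-group levels, 4.83, 4.19 and 3.33 and 3.58, 4.63 and 4.3 CPM, overlapped with DMSO (log2 fold changes -0.20 and -0.18, adjusted p = 0.506 and 0.556). With rapamycin TFEB was at 3.93, 2.78 and 2.45 CPM (-0.63 ± 0.21, adjusted p = 0.0146). That call was lost without DMSO replicate 2, rapamycin library B or rapamycin library C (adjusted p = 0.0769, 0.0644 and 0.110).

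FLCN, which acts on RagC and RagD at the lysosome, was at 29.95, 26.6 and 27.3 CPM in DMSO and 37.6, 38.8 and 33.9 CPM with full-length Csy4, without overlap (0.39 ± 0.08, adjusted p = 5.2e-05). It was also called higher with triggered split Csy4 (0.24, adjusted p = 0.0212), but not without any 1 of 4 libraries, DMSO replicate 2 or 3 or triggered replicate 1 or 3 (adjusted p up to 0.104). The untriggered form gave 0.09 (adjusted p = 0.493) and rapamycin -0.18 (adjusted p = 0.0946, or 0.0126 with length and GC offsets). MITF gave log2 fold changes of 0.22, 0.23 and 0.27 in the transfected groups and was called with triggered split Csy4 (adjusted p = 0.0247). That call was lost without DMSO replicate 3 (0.175) or triggered replicate 2 (0.149), and without the low-count filter (0.0537). With full-length Csy4 (adjusted p = 0.0592) MITF passed in 7 of 15 alternatives, with library totals alone among them (0.00967).

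At the start of the autophagy pathway, ULK1 rose with rapamycin and in the 3 transfected groups, and BECN1 fell in those groups. Of 19 autophagy genes, rapamycin raised 7 and lowered 2, full-length Csy4 raised 10 and lowered 5, untriggered split raised 7 and lowered 3, and triggered split raised 8 and lowered 3. Their summed level was 108% ± 2.43, 110% ± 0.910, 109% ± 0.994 and 110% ± 1.01 of DMSO in that order. ULK1, the initiating kinase, was at 24.4, 20.97 and 24.9 CPM in DMSO, 39.6, 35.5 and 33.4 CPM with rapamycin and 38.9, 38.9 and 37.7 CPM with full-length Csy4. In the split groups ULK1 was at 30.98, 33.3 and 30.8 CPM (untriggered) and 32.3, 34.8 and 32.1 CPM (triggered), so that all 12 of these libraries lay above all DMSO and grazoprevir libraries. The log2 fold changes were 0.62 ± 0.08 for rapamycin, 0.72 ± 0.08 for full-length, 0.43 ± 0.08 for untriggered and 0.50 ± 0.08 for triggered split Csy4, with adjusted p = 4.77e-10, 1.25e-12, 1.13e-05 and 5.89e-07. Its paralog ULK2 was lower with full-length Csy4 (-0.60 ± 0.09, adjusted p = 1.16e-07). ULK2 levels were 16.05, 14.7 and 16.6 CPM there against 26.3, 21.6 and 23.6 CPM in DMSO. ULK2 was also lower with triggered split Csy4, without overlap (-0.31 ± 0.09, adjusted p = 0.00655). The untriggered form gave -0.17 (adjusted p = 0.147).

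BECN1, the scaffold of the lipid kinase complex that marks the growing membrane, was at 46.6, 46.95 and 47.3 CPM in DMSO and 44.9, 43.2 and 46.04 CPM with rapamycin. With full-length Csy4 BECN1 was at 29.7, 24.3 and 29.98 CPM, and with untriggered and triggered split Csy4 at 32.5, 30.3 and 35.5 and 32.8, 33.8 and 34.3 CPM. The transfected libraries all lay below the untransfected ones, with log2 fold changes of -0.75 ± 0.07, -0.52 ± 0.07 and -0.48 ± 0.07 (adjusted p = 7.27e-15, 8.7e-09 and 5.66e-08), against -0.07 with rapamycin (adjusted p = 0.466). Its complex partner ATG14 rose in the 3 transfected groups by 0.31 to 0.35 on the log2 scale.

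Membrane growth and ATG8 conjugation genes varied by condition. WIPI2, which binds the lipid made by the BECN1 complex, was at 77.1, 78.8 and 80.4 CPM in DMSO, 98.9, 107 and 104 CPM with rapamycin and 94.8, 93.5 and 95.9 CPM with full-length Csy4, without overlap, and rose by 0.39 and 0.27. WIPI2 rose by 0.29 and 0.32 with untriggered and triggered split Csy4. ATG13, the ULK1 partner, rose with rapamycin from 66.7, 68.9 and 68.1 CPM to 92.3, 91.4 and 96.7 CPM (0.46 ± 0.05, adjusted p = 1.66e-11). ATG2A, a lipid transfer protein, rose with rapamycin from 24.3, 23.9 and 24.1 CPM to 33.1, 30.9 and 33.4 CPM (0.43 ± 0.08, adjusted p = 1.19e-05). ATG3, the conjugating enzyme that lipidates ATG8 proteins, fell with rapamycin by 0.31 on the log2 scale and its promoter window holds a CLEAR core. ATG12, which is joined to ATG5, was at 68.5, 62.9 and 66.4 CPM in DMSO. With full-length Csy4 ATG12 was at 81.7, 90.9 and 87.0 CPM, without overlap (0.39 ± 0.07, adjusted p = 3.9e-06). With untriggered and triggered split Csy4 it was at 89.9, 78.4 and 88.97 and 90.6, 93.3 and 80.5 CPM. Neither split group overlapped with DMSO (0.38 ± 0.07 and 0.42 ± 0.07, adjusted p = 1.93e-05 and 3.85e-06). WIPI1, at 2.65, 1.82 and 1.79 CPM in DMSO and 1.27, 1.55 and 0.882 CPM with full-length Csy4, gave -0.77 ± 0.30 (adjusted p = 0.0284). ATG16L1 rose (0.22) and ATG9A fell (-0.18, lost with library totals alone, adjusted p = 0.109) with full-length Csy4, and ATG7 fell by 0.28 in both split groups, calls lost without DMSO replicate 1 (adjusted p up to 0.0881). The WIPI1 call was lost without DMSO replicate 1, full-length replicate 1 or 3, or the low-count filter (adjusted p up to 0.198).

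The 4 ATG8 family genes did not move as a block. MAP1LC3B, which encodes the LC3B marker of autophagosomes, was at 102, 100.04 and 104 CPM in DMSO, 123, 114 and 116 CPM with rapamycin, 134, 129 and 127 CPM with full-length, 139.8, 137 and 141 CPM with untriggered and 132, 138 and 137 CPM with triggered split Csy4. All 12 libraries exceeded DMSO, with log2 fold changes of 0.21, 0.35, 0.45 and 0.41 (adjusted p = 6.94e-05, 1.41e-10, 7.61e-14 and 2.26e-12). GABARAP rose with rapamycin (0.19) and fell with full-length Csy4 (-0.33). GABARAPL2 rose with rapamycin by 0.18, a call lost without DMSO replicate 1 or 3 or rapamycin library A (adjusted p up to 0.246).

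GABARAPL1 (chr12:10212877-10223128, GRCh38.p14) showed the reverse. It was at 57.05, 51.1 and 52.3 CPM in DMSO and 43.8, 36.4 and 40.3 CPM with rapamycin, but at 64.9, 68.7 and 72.7 CPM with full-length, 71.6, 68.2 and 66.2 CPM with untriggered and 72.6, 73.9 and 72.7 CPM with triggered split Csy4. Rapamycin libraries lay below and transfected libraries above every DMSO library. The log2 fold change was -0.42 ± 0.06 with rapamycin (adjusted p = 7.37e-08) and 0.36 ± 0.06, 0.36 ± 0.06 and 0.45 ± 0.06 in the transfected groups (adjusted p = 2.8e-07, 1.28e-06 and 3.07e-09). Near copies and an antisense gene could share reads, which was not tested. GABARAPL3 had 0 to 4 counts, GABARAPL1-AS1 6 to 37 and MAP1LC3B2 16 to 38 per library. GABARAPL1 had at least 549 and MAP1LC3B at least 1508. SQSTM1, the p62 cargo receptor, was at 108, 101 and 106 CPM in DMSO and 127, 126 and 134 CPM with full-length Csy4 (0.30 ± 0.04, adjusted p = 4.01e-08). It rose by 0.20 and 0.19 with the untriggered and triggered forms, and was at 108, 103 and 98.9 CPM with rapamycin (-0.03, adjusted p = 0.711).

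Over the 6 group means of log2 CPM, the tested genes most like GABARAPL1, of 172 compared, were CTSS, NPC1 and ATP6V1B2 (Pearson r = 0.99, 0.98 and 0.98). Those most like SQSTM1 were ZKSCAN3, ATP6V0A1 and ATP6V0C (r = 0.997, 0.99 and 0.98). These coefficients describe 6 means that share libraries and scaling.

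The CLEAR core went with a rise in some members and not in others. With rapamycin, GAA, CTSA, ATP6V0D1 and LAMP1 rose and ATG3 fell among the 7, and their median log2 fold change was 0.20, against 0.02 over all 53 tested members. In each transfected group, 2 of the 7 rose (ATP6V0D1 and LAMP1) and 1 fell (GAA). Of the 12 members with an E-box core, 7 rose and 1 fell with rapamycin, 5 and 2 with full-length, 6 and 1 with untriggered and 5 and 1 with triggered split Csy4. Over all tested genes, 17.2%, 22.9%, 14.8% and 16% were called higher in these comparisons.

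Grazoprevir by itself left the lysosome and autophagy genes without a call. None of 53 members passed the edgeR test (0.2% of all tested genes did), none passed with DESeq2, where 9 adjusted p-values were missing, and 1 had an unadjusted p below 0.05. That member was MAP1LC3B, at 113, 114 and 109 CPM against 102, 100.04 and 104 CPM in DMSO (0.14 ± 0.04, adjusted p = 0.222), with no overlap. Other log2 fold changes ran from -0.32 (TFEB, ± 0.20 SE) to 0.15, and the count stayed at 0 without grazoprevir replicate 1.

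Adding grazoprevir to cells with split Csy4 gave no call either. None of 53 members passed in the triggered against the untriggered form with edgeR (0.2% of all tested genes) or with DESeq2, and 4 had an unadjusted p below 0.05. These were TFE3 (0.15 ± 0.07), ATG2A (0.17 ± 0.08), ATG13 (0.12 ± 0.06) and GABARAPL2 (-0.14 ± 0.07), with adjusted p from 0.572 to 0.636. The log2 fold changes over the 53 members ran from -0.16 to 0.20, with a median of -0.004.

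Triggered split Csy4 against grazoprevir alone, which holds the drug constant, gave calls in each role. Of the pump genes 7 rose and 1 fell, of the enzymes 2 rose and 5 fell, and of the autophagy genes 9 rose and 1 fell. ULK1 was at 23.2, 20.9 and 22.7 CPM with grazoprevir and 32.3, 34.8 and 32.1 CPM with the triggered form (0.57 ± 0.08, adjusted p = 2.8e-08). GABARAPL1 was at 52.2, 49.99 and 49.6 against 72.6, 73.9 and 72.7 CPM (0.53 ± 0.06, adjusted p = 1.92e-11). BECN1 was lower, at 32.8, 33.8 and 34.3 CPM against 48.5, 48.1 and 48.9 CPM (-0.53 ± 0.07, adjusted p = 4.64e-09). In none of the 3 did the groups overlap. HEXA and GLA fell by 0.50 and 0.44, while TFE3, NEU1, ATP6V0A1, MITF and ATG12 rose by 0.47, 0.45, 0.43, 0.37 and 0.36. Of the other genes followed throughout, FLCN, MAP1LC3B, ATP6V0D1, SQSTM1 and LAMP1 rose by 0.30, 0.28, 0.25, 0.24 and 0.23, and TFEB gave 0.14 (adjusted p = 0.668). The FLCN call was lost without grazoprevir replicate 3 (adjusted p = 0.0801).

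Compared directly, full-length and split Csy4 differed for 19 members (untriggered) and 14 members (triggered), and most calls pointed to lower levels with the full-length enzyme. Against the untriggered form 4 members were higher and 15 lower (all genes 28%, with 13.1% higher and 14.9% lower), and against the triggered form 2 were higher and 12 lower (22.3%, with 10.1% higher and 12.2% lower). The balance of higher and lower calls depended on scaling. With library totals alone it became 13 higher and 10 lower, and 11 higher and 5 lower, and over all genes the share of calls that were higher went from 46.7% to 67.8% and from 45.5% to 67.5%. Median-of-ratios factors gave 7 and 14, and 3 and 11, and offsets for transcript length and GC content gave 10 and 14, and 8 and 11. Against the triggered form the 14 calls dropped to 9 without full-length replicate 1 or 2, or without triggered replicate 1 or 2.

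ATP6V1C1 carried the largest of these differences. Its log2 fold change was -0.82 ± 0.04 against the untriggered (adjusted p = 9.53e-27) and -0.83 ± 0.04 against the triggered form (adjusted p = 8.25e-27), and the levels given above did not overlap. TFEB was lower by 0.72 and 0.74 (adjusted p = 0.011 and 0.0114). Both TFEB calls were lost without full-length replicate 1 (0.102 and 0.106), the first also without untriggered replicate 1 (0.0832) and the second without triggered replicate 2 (0.0584). CTSL was lower by 0.27 and 0.25 (adjusted p = 1.89e-05 and 0.000104) and CD63 by 0.28 and 0.26 (adjusted p = 6.16e-07 and 1.07e-05). ULK2 was lower by 0.42 against the untriggered form (adjusted p = 0.000353) and NPC2 by 0.35 (adjusted p = 0.00065), at 22.7, 23.7 and 26.2 CPM against 32.1, 28.7 and 32.1 CPM. ULK2 was also lower against the triggered form, by 0.29 (adjusted p = 0.0245), a call lost in 6 alternative settings (adjusted p up to 0.195). GABARAP, ATP6V0E1 and ATP6AP2 were lower than with the triggered form by 0.22, 0.18 and 0.17 (adjusted p = 0.00626, 0.0151 and 0.0178). All 3 of these calls were lost with library totals alone (adjusted p = 0.0546, 0.115 and 0.102). Each was also lost when certain single libraries were left out. Against the untriggered form the same genes were lower by 0.22, 0.16 and 0.15 (adjusted p = 0.00325, 0.0261 and 0.0338). Of the pump genes 3 were called lower in that comparison, but 1 with library totals alone.

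ULK1, TFE3 and FLCN were higher with the full-length than with the untriggered form, by 0.28, 0.26 and 0.30 on the log2 scale (adjusted p = 0.00264, 0.00153 and 0.00311). The FLCN call was lost without untriggered replicate 1 (adjusted p = 0.121), its lowest library. Against the triggered form ULK1 differed by 0.22 (adjusted p = 0.0273, lost without any 1 of 4 libraries or the low-count filter, adjusted p up to 0.111), TFE3 by 0.10 (adjusted p = 0.285) and FLCN by 0.15 (adjusted p = 0.207). BECN1 was lower by 0.23 and 0.27 against the 2 split forms (adjusted p = 0.014 and 0.00578). Both BECN1 calls were lost without full-length replicate 2, the lowest library (0.234 and 0.151), the first also without untriggered replicate 3 (0.143) or with library totals alone (0.0999). GABARAPL1, LAMP1, MAP1LC3B, MITF, SQSTM1 and ATP6V0D1 passed in neither direct comparison, with log2 fold changes from -0.10 to 0.14. Of these, SQSTM1 and ATP6V0D1 passed as higher in both with library totals alone (adjusted p up to 0.0364).

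Genes of the same pathway outside the 54 gave more lower than higher calls among the enzymes of the transfected groups. Of 37 other lysosomal enzymes tested, full-length Csy4 lowered 21 and raised 4, untriggered split lowered 12 and raised 4, triggered split lowered 13 and raised 2, and rapamycin lowered 11 and raised 12. The shares called were 67.6%, 43.2%, 40.5% and 62.2%, where 46.9%, 28.9%, 31.6% and 33.2% of all tested genes were called. With full-length Csy4, LIPA, the acid lipase, fell from 136 to 74.9 CPM (log2 fold change -0.86 ± 0.05, adjusted p = 1.1e-27) and the asparagine-specific protease LGMN from 88.1 to 58.5 CPM (log2 fold change -0.59 ± 0.05, adjusted p = 9.15e-16), while CTSK, a cysteine protease, rose from 1.48 to 5.67 CPM (log2 fold change 1.96 ± 0.23, adjusted p = 1.08e-11). The LIPA mean was also below DMSO in the split groups, at 100.4 CPM (untriggered) and 93.6 CPM (triggered). ARSA, arylsulfatase A, fell with untriggered split Csy4 from 12.7 to 7.54 CPM (log2 fold change -0.74 ± 0.12, adjusted p = 1.7e-06). With the triggered form ARSA fell to 7.02 CPM (log2 fold change -0.84 ± 0.13, adjusted p = 1.02e-07), and its full-length mean was 9.25 CPM. Rapamycin raised HGSNAT, an enzyme of heparan sulfate breakdown, from 42.3 to 67.6 CPM (log2 fold change 0.68 ± 0.06, adjusted p = 1.59e-14), and the sulfatase ARSB from 13.5 to 21.4 CPM (log2 fold change 0.67 ± 0.10, adjusted p = 1.56e-07).

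Of 12 further pump genes, 2 rose with full-length, 1 with untriggered split and 2 with triggered split Csy4, 3 rose with rapamycin, and none fell. That is 16.7%, 8.33%, 16.7% and 25.0% of them, where 46.9%, 28.9%, 31.6% and 33.2% of all tested genes were called. These shares of 12 genes lay below those of all genes. The part of low counts in this was not tested. The same all-gene shares apply to the next lists. Of 21 membrane and sorting genes, full-length Csy4 raised 3 and lowered 4, untriggered split 6 and 2, triggered split 5 and 4, and rapamycin 4 and 1 (33.3%, 38.1%, 42.9% and 23.8% called). IGF2R, the receptor that sorts enzymes to the lysosome, rose with full-length Csy4 from 177 to 211 CPM (log2 fold change 0.26 ± 0.04, adjusted p = 5.31e-07), and with untriggered and triggered split Csy4 to 229 and 227 CPM (log2 fold change 0.37 ± 0.04, adjusted p = 6.56e-11, and log2 fold change 0.36 ± 0.04, adjusted p = 2.2e-10). Of 35 further autophagy genes, full-length Csy4 raised 11 and lowered 8, untriggered split 9 and 4, triggered split 8 and 4, and rapamycin 8 and 7 (54.3%, 37.1%, 34.3% and 42.9% called). Rapamycin raised WDR45, a WIPI family gene, from 27.5 to 41.2 CPM (log2 fold change 0.58 ± 0.07, adjusted p = 6.18e-10) and lowered BNIP3, a mitophagy receptor, from 67.5 to 47.0 CPM (log2 fold change -0.52 ± 0.07, adjusted p = 6.95e-09). BNIP3 also fell with untriggered and triggered split Csy4, to 49.3 and 49.9 CPM (log2 fold change -0.45 ± 0.07, adjusted p = 3.22e-07, and log2 fold change -0.43 ± 0.07, adjusted p = 7.53e-07).

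The Rag GTPases and Ragulator place mTORC1 on the lysosome. A list of 15 genes held Rag, Ragulator and folliculin partners together with transcription factors such as FOXO1, FOXO3 and ZKSCAN3. In this list, full-length Csy4 raised 8 and lowered 3, untriggered split 6 and 1, triggered split 7 and 1, and rapamycin 6 and 1. The shares called were 73.3%, 46.7%, 53.3% and 46.7%, where 46.9%, 28.9%, 31.6% and 33.2% of all tested genes were called. The GTPases RRAGC and RRAGD moved apart with full-length Csy4, RRAGC from 44.8 to 66.0 CPM (log2 fold change 0.56 ± 0.06, adjusted p = 8.28e-13) and RRAGD from 63.3 to 42.7 CPM (log2 fold change -0.56 ± 0.06, adjusted p = 1.92e-12). With untriggered split Csy4 RRAGC rose to 58.0 CPM (log2 fold change 0.37 ± 0.06, adjusted p = 1.06e-06) and RRAGD fell to 49.1 CPM (log2 fold change -0.36 ± 0.06, adjusted p = 1.82e-06). The RRAGC mean with triggered split Csy4, 56.1 CPM, was also above DMSO. RRAGD fell with triggered split Csy4, to 48.9 CPM (log2 fold change -0.37 ± 0.06, adjusted p = 1.04e-06). RRAGD also fell with rapamycin, to 47.2 CPM (log2 fold change -0.43 ± 0.06, adjusted p = 2.58e-08).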

How the data were processed

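RNA-seq was made from 18 HEK-293T libraries, 6 groups of 3. Per the labels' protocols, RNA was extracted with TRIzol and poly(A)-selected, and the submitters' processing notes name HISAT2 2.2.1 and HTSeq 0.6.1, with cutadapt 1.9.1, DESeq2 1.44.0 and the hg38 build. The authors deposited raw counts per gene symbol, with no normalization, and the strand setting of the counting is not given in the sources used here. Totals ran from 12362101 to 19095828 counts, which sets the precision. Groups came from the labels, and the 3 rapamycin columns, which share 1 header, are called libraries A, B and C.

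All 18 libraries entered 1 edgeR 4.0.16 fit (robust quasi-likelihood, TMM scaling, filterByExpr, 1 mean per group) in R 4.3.3, and 9 contrasts were tested two-sided with Benjamini-Hochberg adjustment over 17966 genes at 0.05. Standard errors (SE) were taken as the size of the log2 fold change over the root of its F statistic. The common biological coefficient of variation was 4.15%. The fit was tested on simulated data. Levels are TMM-scaled CPM, per kilobase where said, with GENCODE 29 transcript lengths. Role sums and promoter motifs were computed in Python 3.11.15. DESeq2 1.42.0, 2 other scalings, length and GC offsets (14997 genes), 2 other filters, the compared groups alone, a replicate block and leaving out each library were alternatives. A fit of the same 14997 genes without the offsets, which was not planned, is also counted among the alternatives.

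The members, role lists, marker lists and lists of other pathway genes were chosen with earlier results of these data known. Named with values in a comparison were the 10 called members with the largest absolute log2 fold change among those whose groups did not overlap, 9 fixed genes (TFEB, TFE3, MITF, FLCN, SQSTM1, MAP1LC3B, GABARAPL1, LAMP1 and ATP6V0D1), and up to 3 called genes per list of other pathway genes with at least 5 CPM. Genes named beyond that rule in a comparison were added after their values were seen. Genes not named in a comparison may still have been called there. Protein sequences were not used here.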

Additional observations from a re-analysis of the deposited data

Results flagged for a closer look

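ATP6V1C1, the C subunit of the cytosolic pump sector, moved in opposite directions with the enzyme forms, lower than DMSO with full-length Csy4 and higher than DMSO with both split forms. A member was flagged only when it was called in opposite directions against DMSO and was also called in the direct comparison. The direct test is therefore part of the rule and no separate support. Full-length against untriggered split Csy4 gave a log2 fold change of -0.82 ± 0.04 (SE, edgeR quasi-likelihood, adjusted p = 9.53e-27), with all 3 full-length libraries below all 3 untriggered ones. Against the triggered form it was -0.83 ± 0.04 (adjusted p = 8.25e-27), again without overlap. The call held in all 15 alternatives run for either comparison. The 3 full-length and 6 split libraries differ in construct, and no value here separates construct from enzyme activity.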

How the results depend on the processing

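Of the counts of members called, the one for full-length against triggered split Csy4 moved by over 1.5 times: 14 of 53 became 9 to 12 when 1 library was left out, and 9 without full-length replicate 1 or 2 or triggered replicate 1 or 2. Each of these fits also had fewer samples, and the cause was not tested. Leaving out 1 library gave 19 to 22 calls for rapamycin, 33 to 38 for full-length, 25 to 29 for untriggered and 27 to 31 for triggered split Csy4 against DMSO. It gave 26 to 32 for triggered split Csy4 against grazoprevir, 15 to 20 for full-length against untriggered split Csy4, and 0 throughout for grazoprevir alone and for triggered against untriggered. Over the alternatives of the members picked by the naming rule, each in the comparisons where it was picked, 1925 values kept their side of the threshold, 48 lost a call, 18 gained one and none reversed. The other members are not in that tally. Under library totals alone, partly different members passed: 35 of the 41 called for full-length Csy4 against DMSO were also called under TMM scaling, as were 14 of 23 and 7 of 16 in the direct comparisons with the untriggered and triggered forms.

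Replicate numbers did not pair the samples: the same number in 2 groups gave correlations of deviations from -0.228 to 0.232 (median 0.00133, 30 pairs), and other numbers -0.223 to 0.3. With the replicate block, 38, 28 and 32 members were called for full-length, untriggered and triggered split Csy4 against DMSO, 31 for triggered split Csy4 against grazoprevir, 19 and 14 for the direct comparisons, and 0 for the other 2. No paired analysis was possible for rapamycin because its columns carry no number.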

Other observations

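Members not called in any comparison with DMSO were ATP6V0E1, ATP6V1A and ATP6V1G1 of the pump and the calcium channel MCOLN1. CTSZ was untested at 91 counts over all 18 libraries.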
